A study of Homo sapiens with 10 samples.

Results

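Metalloproteinases at the cell surface, the inhibitors that hold them in check and an inducer of their production were followed in HCT116 cells, a human colorectal carcinoma line of epithelial origin, with and without a knockout of CD276 (B7-H3). The genes were the membrane-type matrix metalloproteinases MMP14 and MMP15, the disintegrin metalloproteinases ADAM9, ADAM10, ADAM15 and ADAM17, the tissue inhibitors TIMP1, TIMP2 and TIMP3, and basigin (BSG). They were chosen by symbol, and all 10 were found among the 58050 Ensembl genes of the table of TPM (a transcript level scaled for transcript length and for the total of each library). RNA was sequenced from 5 cultures labelled HCT116-WT and 5 labelled HCT116-CD276KO, and the labels give no drug or other treatment beside the editing. All HCT116-CD276KO cultures grew from 1 single cell clone that had been electroporated with Cas9 and a guide RNA against CD276 and sorted for loss of the protein, so a difference between the groups belongs to that clone and its 5 cultures. The protocol names a scrambled guide as the control of the editing, but whether the HCT116-WT cultures had received it is not stated. The p-values below measure the spread between cultures.

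Membrane-anchored proteases act on what surrounds and covers the cell. MMP14 and MMP15 cleave matrix proteins and, with TIMP2 as an adaptor, MMP14 activates the secreted gelatinase MMP2. The ADAM sheddases cut the extracellular part of growth factors, adhesion molecules and Notch receptors from the membrane, ADAM10 mainly as a constitutive and ADAM17 as an inducible enzyme. In the gut epithelium they release the ligands of the EGF receptor and cleave E-cadherin. TIMP proteins bind the catalytic site, and TIMP3, which is held in the matrix, is the family member that inhibits ADAM17. BSG, also called EMMPRIN or CD147, induces matrix metalloproteinases in neighbouring cells and escorts lactate transporters to the membrane.

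CD276 itself fell from 45.3 ± 6.17 TPM (SD, n = 5) in HCT116-WT to 5.46 ± 1.21 TPM (SD, n = 5) in HCT116-CD276KO cultures, without overlap. Markers listed for epithelial cells (EPCAM, KRT8, KRT18, KRT19, CDH1 and CLDN4) were present in every library, while 4 of 5 fibroblast markers (COL1A2, COL3A1, DCN and LUM), CD3E and CDH5 were under 0.1 TPM in each. The other markers of these lists were not all low. COL1A1, listed for fibroblasts, stood at 5.83 to 8.84 TPM in HCT116-WT and 4.54 to 7.44 TPM in HCT116-CD276KO cultures. CD68, listed for leukocytes, stood at 8.89 to 14.75 and 6.01 to 12.89 TPM. PTPRC, LYZ, PECAM1 and VWF reached at most 0.13, 0.20, 0.22 and 0.50 TPM. Summed fibroblast, leukocyte and endothelial markers reached at most 8.87, 14.99 and 0.59 TPM. The summed epithelial markers were lower in HCT116-CD276KO cultures, at 3373 to 3848 TPM against 4283 to 5084 TPM, and all 6 passed the test described next. Each gene with a mean of at least 1 TPM was compared between the groups with limma on log2(TPM + 1), and a gene was called where its p-value, adjusted by Benjamini-Hochberg over the 13581 genes tested, was under 0.05. Of these genes 4.87% were called, 556 lower (4.09%) and 106 higher (0.781%) in HCT116-CD276KO cultures. After quantile normalization the split was 385 lower and 253 higher, and after median-of-ratios scaling 386 lower and 197 higher. Libraries also differed in how their deviations from the gene means followed transcript length and GC content over 13472 genes. The Spearman correlation with length was -0.52 and -0.49 in HCT116-CD276KO replicates 2 and 3 and lay between -0.09 and 0.43 in the other 8 libraries. That with GC content was highest in HCT116-WT replicate 3, at 0.61. The methods give an average sequencing depth per sample, but TPM hold no read counts, so the reads behind a single value are not known.

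None of the 9 members tested was called by limma, against 4.87% of all genes. An unadjusted p-value under 0.05 was found for MMP15, BSG and ADAM10, that is for 3 of the 9, against 21.9% of all genes tested. The unadjusted exact permutation test passed 0.05 in 2 of the 9, MMP15 and BSG, against 20.4% of all genes tested, and also in TIMP3. The log2 fold changes (HCT116-CD276KO minus HCT116-WT, on the log2(TPM + 1) scale) ran from -0.34 to 0.11 with a median of -0.14, and the median over all genes tested was -0.09. Below 0 stood 8 of the 9, as did 68.1% of all genes. In none of the 9 were the groups free of overlap, against 7.61% of all genes tested. TIMP3 was under the minimum mean and was not part of that test. In bulk RNA, fewer cells with a transcript and less of it per cell cannot be told apart. Across the 9 genes the 95% intervals of the log2 fold changes reached at most -0.68, a bound that belongs to ADAM10.

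**Figure D1:**
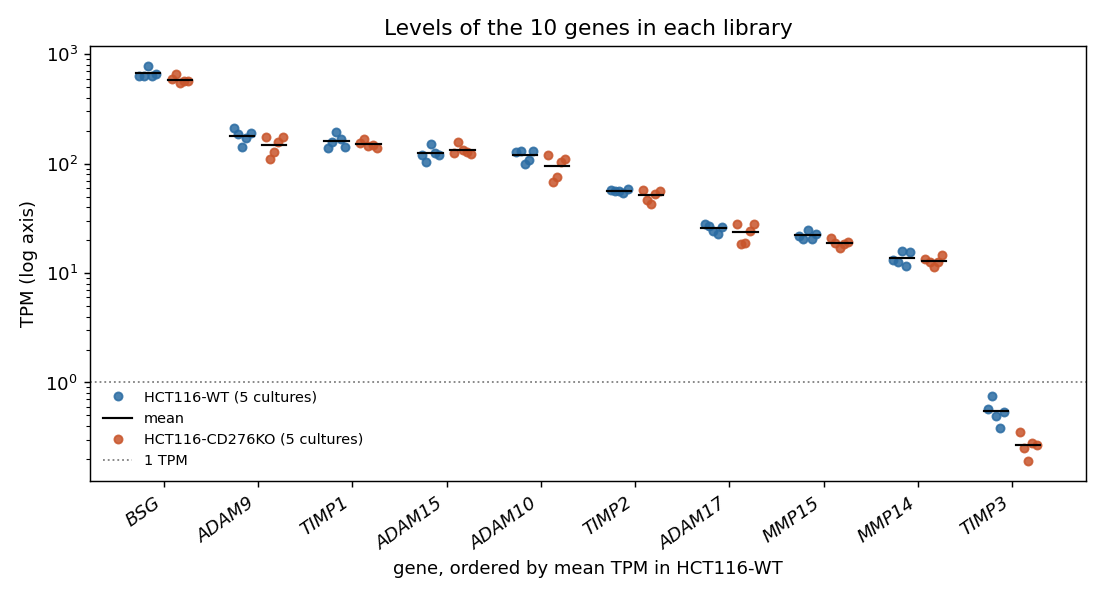
TPM on a log axis of the 10 genes in each of the 10 libraries, with a black bar at the mean of each group of 5. BSG lies between 545 and 786 TPM, TIMP3 below 1 TPM throughout, and TIMP3 is the gene whose groups do not overlap.

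The inhibitors spanned the widest range of levels. In HCT116-WT cultures TIMP1 averaged 160 TPM, TIMP2 56.5 TPM and TIMP3 0.546 TPM, all per transcript length. Both the most and the least abundant of them lie inside a synapsin gene on the opposite strand, TIMP1 in SYN1 on the X chromosome and TIMP3 in SYN3 on chromosome 22. Those host genes were at most at 0.42 TPM (SYN1) and 0.06 TPM (SYN3) in any library. The bases from 250 to 31 before the RefSeq start (GRCh38.p14) are shown for this pair, and for the pair of membrane-type metalloproteinases, because each pair holds close relatives whose levels differ. Capitals mark the GC box, GGGCGG or its reverse complement CCGCCC.
TIMP1, chrX:47582186-47582405, plus strand: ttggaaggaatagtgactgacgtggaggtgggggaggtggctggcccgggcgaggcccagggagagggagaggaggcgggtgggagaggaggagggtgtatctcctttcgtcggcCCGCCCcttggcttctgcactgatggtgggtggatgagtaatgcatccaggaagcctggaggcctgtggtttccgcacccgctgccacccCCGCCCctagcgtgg
TIMP3, chr22:32801455-32801674, plus strand: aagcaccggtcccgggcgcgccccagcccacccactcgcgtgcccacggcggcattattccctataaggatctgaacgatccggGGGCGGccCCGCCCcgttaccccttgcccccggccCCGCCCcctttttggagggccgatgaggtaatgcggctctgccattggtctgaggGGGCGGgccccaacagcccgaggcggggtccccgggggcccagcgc
MMP14, chr14:22836335-22836554, plus strand: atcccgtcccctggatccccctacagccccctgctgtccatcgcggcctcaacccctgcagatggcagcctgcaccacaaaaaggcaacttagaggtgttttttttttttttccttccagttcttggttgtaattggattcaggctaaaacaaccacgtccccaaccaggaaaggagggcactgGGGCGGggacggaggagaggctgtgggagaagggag
MMP15, chr16:58025504-58025723, plus strand: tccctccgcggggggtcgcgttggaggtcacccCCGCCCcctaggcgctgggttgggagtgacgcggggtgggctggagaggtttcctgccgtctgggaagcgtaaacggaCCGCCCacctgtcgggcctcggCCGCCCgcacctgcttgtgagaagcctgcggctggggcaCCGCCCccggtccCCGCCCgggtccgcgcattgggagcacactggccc
The GC box occurred 2 times in the TIMP1 window, 4 times in that of TIMP3, 1 time in that of MMP14 and 5 times in that of MMP15, and 38.9% of 35114 RefSeq promoter windows of this length held at least 1. GC content was 65.9% for TIMP1, 72.7% for TIMP3, 55.9% for MMP14 and 74.1% for MMP15, with a median of 57.7% over all windows. The TIMP3 window, upstream of the least abundant member, held 22 CpG dinucleotides and the TIMP1 window 11, with a median of 9 over all windows. The TATA box, spelled TATAAA and searched on both strands, was in none of the 4 windows, and 8.09% of all windows held it.

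TIMP3 (ENSG00000100234, chromosome 22 from 32801705 to 32863041, plus strand, hg38), the matrix-bound inhibitor of ADAM17, was the one member whose groups did not overlap. Its TPM in replicates 1 to 5 were 0.57, 0.75, 0.49, 0.38 and 0.54 for HCT116-WT and 0.35, 0.25, 0.19, 0.28 and 0.27 for HCT116-CD276KO. Every HCT116-CD276KO value lay below every HCT116-WT value, with 0.35 and 0.38 TPM as the nearest pair. On average 0.546 ± 0.135 TPM became 0.268 ± 0.0576 TPM (SD, n = 5 each), and the clone kept 49.1% of the HCT116-WT mean. A two-sided exact permutation test on log2(TPM + 1) gave p = 0.00794, the smallest that 5 against 5 allow. Of the 5884 genes with a mean between 0.1 and 1 TPM, 2.5% were lower without overlap. When limma was run on all genes above 0 TPM, its adjusted p-value was 0.0629 with a log2 fold change of -0.28, a value that was -0.80 with a pseudocount of 0.1 in place of 1. The log2 ratio of the mean TPM was -1.03. Replicates 2 and 3 held the lowest values of the HCT116-CD276KO group, and without them the groups still did not overlap, at 0.27 to 0.35 TPM against 0.38 to 0.75 TPM.

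TIMP1 (ENSG00000102265, chromosome X from 47582408 to 47586789, plus strand), a secreted inhibitor of most soluble metalloproteinases and of ADAM10, stood at 138, 159, 193, 169 and 143 TPM in HCT116-WT replicates 1 to 5. The HCT116-CD276KO libraries gave, in the same order, 155, 168, 147, 148 and 138 TPM. HCT116-WT replicates 3 and 4 lay above every HCT116-CD276KO value, and the other 3 within their range. Limma gave -0.08 ± 0.09 (log2 fold change ± SE) at an adjusted p of 0.640, with a 95% interval from -0.28 to 0.13, and it turned to 0.02 after median-of-ratios scaling. TIMP2 (ENSG00000035862, chromosome 17 from 78852977 to 78925387, minus strand), which both inhibits MMP14 and joins it to MMP2, was the steadiest member in HCT116-WT cultures. It lay there between 53.8 and 58.3 TPM, a coefficient of variation of 3.14%. The HCT116-CD276KO libraries gave 57.5, 46.1, 43.2, 53.3 and 56.7 TPM, so that replicates 2 and 3 alone lay below the HCT116-WT values by more than 1 TPM. Limma put the log2 fold change at -0.14 ± 0.08 (SE), adjusted p = 0.328, and -0.02 without those libraries. CEP295NL, which overlaps TIMP2 on the same strand over 12639 bases, ran from 0 to 5.55 TPM over the libraries, and how reads were shared between them is not stated.

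MMP14 (ENSG00000157227, chromosome 14 from 22836560 to 22849041, plus strand), the pericellular collagenase, stood at 13.2, 12.5, 16.0, 11.7 and 15.6 TPM in HCT116-WT replicates 1 to 5. The HCT116-CD276KO libraries gave, in the same order, 13.4, 12.6, 11.5, 12.6 and 14.5 TPM. The values were interleaved, and limma put the difference at -0.08 ± 0.10 log2 units (SE), adjusted p = 0.633. Its sign was not stable, since median-of-ratios scaling gave 0.01 and quantile normalization 0.05. MMP15 (ENSG00000102996, chromosome 16 from 58025754 to 58046901, plus strand), its closest membrane-type relative, stood at 22.0, 20.3, 24.9, 20.3 and 22.9 TPM in HCT116-WT cultures. The HCT116-CD276KO libraries gave 20.8, 19.0, 16.8, 18.4 and 19.1 TPM. Only HCT116-CD276KO replicate 1 reached into the HCT116-WT range. Limma gave -0.22 ± 0.08 (log2 fold change ± SE, 95% interval -0.39 to -0.05) at an adjusted p of 0.136, and the two-sided exact permutation test gave p = 0.0238. Its adjusted p-value ran from 0.0863 to 0.455 over the alternatives, so it was not called in any of them. Per transcript length MMP14 was below MMP15 in each of the 10 libraries, at 0.574 to 0.680 of its TPM in HCT116-WT and 0.644 to 0.758 in HCT116-CD276KO cultures.

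Among the sheddases, ADAM9 (ENSG00000168615, chromosome 8 from 38996754 to 39105445, plus strand), which cleaves several membrane proteins and is widely expressed, had the highest mean level in both groups. HCT116-WT cultures measured 212, 186, 141, 173 and 192 TPM and HCT116-CD276KO cultures 174, 110, 128, 157 and 177 TPM, replicates 1 to 5 each. Limma gave -0.28 ± 0.14 (log2 fold change ± SE) at an adjusted p of 0.267. ADAM10 (ENSG00000137845, chromosome 15 from 58588809 to 58749791, minus strand), the sheddase of Notch receptors and E-cadherin, stood at 129, 130, 99.4, 109 and 131 TPM in HCT116-WT replicates. The HCT116-CD276KO libraries gave 120, 68.7, 76.2, 104 and 111 TPM, with replicates 2 and 3 well under all other libraries. Limma gave -0.34 ± 0.15 (log2 fold change ± SE, 95% interval -0.68 to -0.004) at an adjusted p of 0.222, and the two-sided exact permutation test gave p = 0.0952. Without replicates 2 and 3 it was -0.09, and with 103.99 to 120.14 TPM the remaining 3 libraries lay within the HCT116-WT range of 99.35 to 131.16 TPM.

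ADAM17 (ENSG00000151694, chromosome 2 from 9488486 to 9556732, minus strand), the sheddase of TNF and of most EGF receptor ligands, was lower in level than ADAM9, ADAM10 and ADAM15 in every library. HCT116-WT cultures measured 28.0, 26.7, 24.2, 22.9 and 26.4 TPM and HCT116-CD276KO cultures 28.0, 18.3, 18.8, 24.5 and 27.8 TPM, replicates 1 to 5 each. Limma gave -0.14 ± 0.13 (log2 fold change ± SE) at an adjusted p of 0.516, and 0.06 without HCT116-CD276KO replicates 2 and 3. ADAM15 (ENSG00000143537, chromosome 1 from 155050566 to 155062775, plus strand), an ADAM that also binds integrins, was the member whose mean was higher in the clone. HCT116-WT cultures measured 119, 104, 153, 125 and 119 TPM and HCT116-CD276KO cultures 126, 158, 132, 127 and 122 TPM, replicates 1 to 5 each. HCT116-WT replicate 3 and HCT116-CD276KO replicate 2 stood above the rest of their groups. Limma gave 0.11 ± 0.10 (log2 fold change ± SE) at an adjusted p of 0.545, and the sign held under every alternative run, between 0.02 and 0.21.

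BSG (ENSG00000172270, chromosome 19 from 571277 to 583494, plus strand), the inducer, was the most abundant member and ranked 211 among the 13581 genes tested by its mean in HCT116-WT cultures. HCT116-WT cultures measured 631, 635, 786, 632 and 656 TPM and HCT116-CD276KO cultures 595, 662, 545, 568 and 566 TPM, replicates 1 to 5 each. HCT116-CD276KO replicate 2 was the library that reached into the HCT116-WT range. Limma gave -0.18 ± 0.08 (log2 fold change ± SE, 95% interval -0.35 to -0.02) at an adjusted p of 0.187, and the two-sided exact permutation test gave p = 0.0397. With the trend of each library with length and GC content removed, BSG was called by limma at -0.14 log2 units (adjusted p = 0.0242), where 9.64% of 13472 genes were called. No HCT116-CD276KO library then overlapped HCT116-WT, with deviations from the gene mean of -0.10 to -0.05 against 0.03 to 0.12, and on this scale the groups did not overlap in 10.5% of all genes. It was the only member called there, and adding the replicate number as a block to that fit gave an adjusted p-value of 0.0939. After median-of-ratios scaling the log2 fold change of BSG was -0.08, at an adjusted p of 0.630 in limma.

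**Figure D2:**
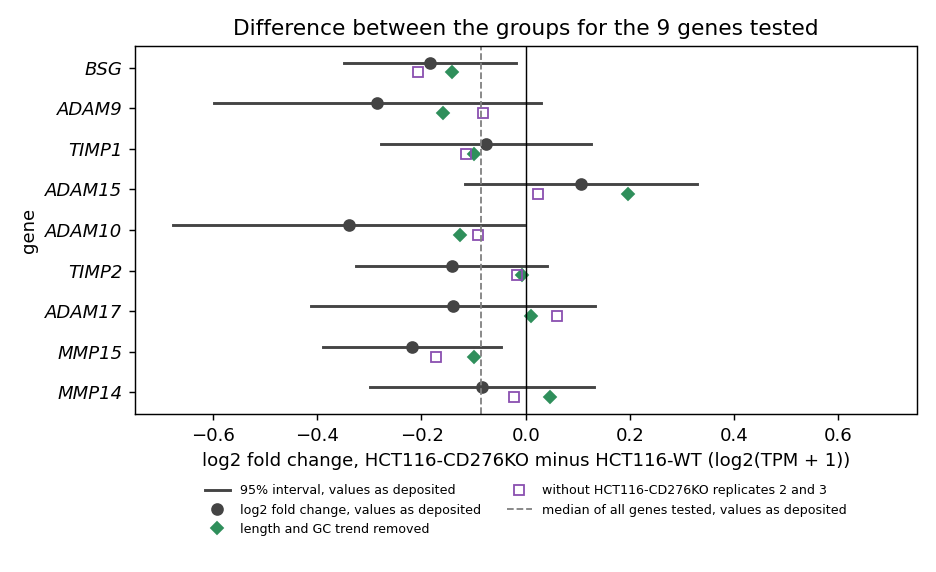
Log2 fold change of the 9 genes tested (filled circles with 95% intervals), the same after the length and GC trend of each library was removed (diamonds) and without HCT116-CD276KO replicates 2 and 3 (open squares). The circle of ADAM10 at -0.34 moves to -0.13 and -0.09, while that of BSG at -0.18 moves to -0.14 and -0.21.

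The sheddases ADAM9, ADAM10 and ADAM17 were all low in HCT116-CD276KO replicates 2 and 3. Their reference transcripts hold 38.7%, 37.5% and 42.1% GC in that order, against 62.5% in those of ADAM15 and BSG. They are 4112, 11158 and 4391 bases long, against 2936 bases for ADAM15 and 1946 bases for BSG. In HCT116-CD276KO replicate 2 the deviation from the gene's own mean over 10 libraries was -0.56 for ADAM9, -0.62 for ADAM10 and -0.39 for ADAM17 on the log2 scale, and 0.30 for ADAM15. In replicate 3 these were -0.34, -0.47, -0.35 and 0.05. The correlation of library deviations with length was -0.52 in replicate 2 and -0.49 in replicate 3. That with GC content was 0.48 in replicate 2 but 0.02 in replicate 3. GC-rich members were low in replicate 3 too, with MMP15 (65.5% GC, 4062 bases) at -0.26, MMP14 (58.9%, 3701 bases) at -0.20 and BSG at -0.20. TIMP2, at 53.7% GC and 3652 bases, deviated by -0.22 and -0.31 in HCT116-CD276KO replicates 2 and 3. The parts of length and of GC content were not tested. In HCT116-WT replicate 3, the library with the highest correlation with GC content, ADAM9 deviated by -0.20, ADAM10 by -0.09 and ADAM17 by -0.01, whereas ADAM15, TIMP1 and BSG deviated by 0.26, 0.31 and 0.33. Removing the length and GC trends brought the SD within groups from 0.26 to 0.12 for ADAM9, from 0.28 to 0.08 for ADAM10, from 0.22 to 0.10 for ADAM17 and from 0.12 to 0.03 for BSG. The log2 fold changes were then -0.16 for ADAM9, -0.13 for ADAM10, 0.01 for ADAM17 and 0.20 for ADAM15, with adjusted p-values between 0.113 and 0.940 from limma. For ADAM15 the highest libraries were then HCT116-CD276KO replicates 2 and 3, at deviations of 0.24 and 0.23.

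**Figure D3:**
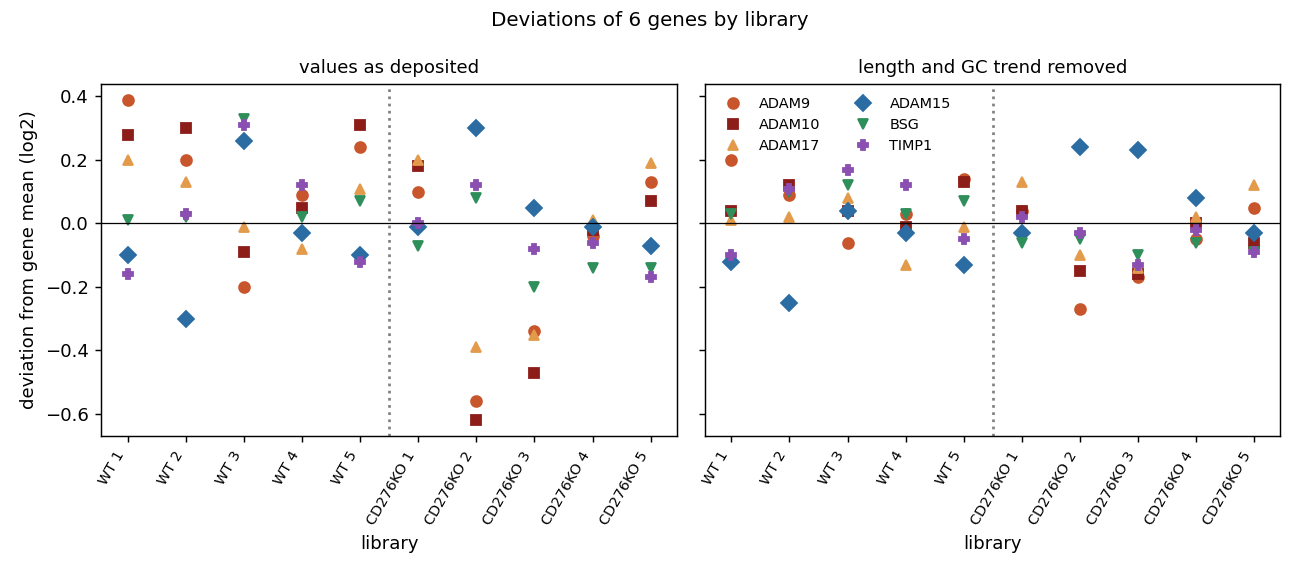
Deviation of each library from the gene's own mean over the 10 libraries, on the log2 scale, for 6 genes, with the values as deposited on the left and with the length and GC trends removed on the right. ADAM9, ADAM10 and ADAM17 drop together in HCT116-CD276KO replicates 2 and 3 on the left, to -0.62 at the lowest, and to no less than -0.27 on the right.

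Ordered by mean TPM in HCT116-WT cultures, the members ran from BSG over ADAM9, TIMP1, ADAM15, ADAM10, TIMP2, ADAM17, MMP15 and MMP14 to TIMP3. The neighbours from ADAM9 to ADAM10 overlapped in their ranges over the 5 libraries, as did ADAM17 and MMP15. Between all other neighbours the ranges left a gap, and the order held in 5 of 5 libraries. In HCT116-CD276KO cultures TIMP1 stood before ADAM9, at 151 against 149 TPM, but only in 2 of 5 libraries, and ADAM15 was above ADAM10 in 5 of 5 libraries, at 133 against 96.1 TPM.

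Ratios within a library set each protease beside its inhibitor. MMP14 was at 0.244 ± 0.0308 of the TIMP2 level (SD, n = 5) in HCT116-WT and at 0.253 ± 0.0179 (SD, n = 5) in HCT116-CD276KO cultures, with overlapping ranges. ADAM17 was 35.6 to 60.4 times the TIMP3 level in HCT116-WT and 73.3 to 103 times in HCT116-CD276KO cultures, without overlap. The difference of the mean log2 ratio was 0.87, but 0.14 when 1 TPM was added to both genes, since TIMP3 is below 1 TPM. ADAM10 was 4.67 ± 0.345 times ADAM17 in HCT116-WT and 4.07 ± 0.218 times in HCT116-CD276KO cultures (SD, n = 5 each), with ranges of 4.10 to 4.97 and 3.75 to 4.29 that overlapped. TIMP1 was 2.39 to 3.45 times TIMP2 in HCT116-WT and 2.43 to 3.65 times in HCT116-CD276KO cultures. These ratios were not tested.

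A gene that shares the ADAM17 locus did separate the groups. IAH1 (ENSG00000134330), annotated as an esterase-like gene on the plus strand of chromosome 2 from 9473658 to 9496543, overlaps the 3' end of ADAM17 on the opposite strand over 8058 bases. It was named after its values were seen. HCT116-WT cultures measured 30.6, 30.9, 27.3, 28.4 and 30.9 TPM and HCT116-CD276KO cultures 11.2, 10.7, 10.3, 13.1 and 9.02 TPM, replicates 1 to 5 each. Limma gave -1.38 ± 0.09 (log2 fold change ± SE) at an adjusted p of 3.77e-06, and it stayed between -1.45 and -1.24 under every alternative run. The 95% interval of ADAM17, from -0.41 to 0.13, did not reach that value. The libraries were strand-specific, but whether strand was used in the counting is not stated. Other overlapping genes were low or steady, with BSG-AS1 at 4.27 to 8.56 TPM against BSG and TM2D2, which overlaps ADAM9 over 71 bases, at 48.1 to 55.9 TPM.

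Relatives, partners and substrates of the 10 genes were read from further lists. Of 21 other MMP genes 4 reached a mean of 1 TPM, and 1 of these was called, lower, against 4.09% of all genes called lower. It was MMP7 (matrilysin, the secreted metalloproteinase typical of epithelial cells), at 2.29, 2.45, 1.80, 2.77 and 1.92 TPM in HCT116-WT and 1.11, 0.95, 1.02, 0.79 and 1.01 TPM in HCT116-CD276KO replicates. All 5 values of the clone lay below all 5 of HCT116-WT, and the log2 ratio of the means was -1.20. On the log2(TPM + 1) scale limma gave -0.71 ± 0.11 (SE) at an adjusted p of 0.00411. MMP11, the most abundant of these other MMPs, had 5.63 and 5.07 TPM as group means and 0.539 as its adjusted p in limma. Of 16 other ADAM and 19 ADAMTS genes 4 and 4 were tested and none was called by limma. None had an unadjusted p-value under 0.05, against 21.9% of all genes tested. ADAM19, the most abundant, had means of 59.5 and 58.3 TPM, and ADAMTS7 2.94 and 2.62 TPM.

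Among other inhibitors, 0 of 3 tested genes were called by limma and 2 had an unadjusted p-value under 0.05, against 21.9% of all genes tested. SPINT2, a Kunitz inhibitor of serine proteases and the most abundant of them, went from 544 ± 44.8 to 471 ± 26.9 TPM (SD, n = 5 each) at an adjusted p of 0.106 in limma. The proprotein convertases remove the inhibitory propeptide of MMP14, MMP15 and the ADAMs. Limma called 0 of 4, and 2 had an unadjusted p-value under 0.05, against 21.9% of all genes tested. FURIN, the most abundant of them, had means of 38.0 and 30.4 TPM and 0.187 as its adjusted p in limma. The next list held partners that carry ADAM10 (the TspanC8 tetraspanins) or ADAM17 (the iRhoms RHBDF1 and RHBDF2 with FRMD8) to the surface. Of these, 0 of 9 were called by limma and 4 had an unadjusted p-value under 0.05, against 21.9% of all genes tested. TSPAN5, the most abundant, had means of 75.9 and 62.9 TPM and 0.166 as its adjusted p in limma.

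In 3 of these partners, named after their values were seen, the groups did not overlap although they were not called. TSPAN14 stood at 59.5 to 70.6 TPM in HCT116-WT and 38.6 to 58.0 TPM in HCT116-CD276KO cultures (log2 fold change -0.38, adjusted p-value 0.0571 from limma). TSPAN15 stood at 10.2 to 13.3 and 7.75 to 10.1 TPM (-0.36, adjusted p-value 0.0522 from limma), and RHBDF2 at 21.6 to 25.3 and 13.0 to 21.4 TPM (-0.39, adjusted p-value 0.0785 from limma). Of all genes tested, 6.19% were lower without overlap. Of 21 alternatives, 3 called TSPAN14, 5 called TSPAN15 and 1 called RHBDF2. The lowest adjusted p from limma was 0.0317 for TSPAN14 (without HCT116-CD276KO replicate 5), 0.0240 for TSPAN15 (trends with length and GC content removed, with the replicate block) and 0.0406 for RHBDF2 (without HCT116-CD276KO replicate 1). The highest was 0.163, 0.250 and 0.182, in the same order. The partners of BSG included the lactate transporters SLC16A1 and SLC16A3 and the cyclophilins. Limma called 0 of 6 tested, and none had an unadjusted p-value under 0.05, against 21.9% of all genes tested. PPIA, the cyclophilin that binds BSG from outside, had means of 3137 and 3337 TPM (adjusted p-value 0.282 from limma), and reads of its processed pseudogenes may be shared with it.

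Substrates of the sheddases were examined next. Of 34 proteins listed as shed by ADAM10 or ADAM17, 29 were tested and 6 were called, all lower in HCT116-CD276KO cultures, against 4.09% of all genes called lower. The list was drawn up with earlier results of these data known, so these calls cannot be read as an excess over that share. The median log2 fold change of the 29 was -0.30, against -0.09 over all genes tested. Of the 29, 28 stood below 0, as did 68.1% of all genes. For the same reason this median and this count cannot be read as a shift of the list. Both were taken from the values as deposited only. NRG1 (neuregulin, an ERBB ligand released by ADAM17) fell from 10.2 to 0.832 TPM, a log2 ratio of the means of -3.62. On the log2(TPM + 1) scale, which understates changes near or below 1 TPM, limma gave -2.62 ± 0.11 (SE) at an adjusted p of 4.84e-08. CDH1 (E-cadherin, a substrate of ADAM10) stood at 47.9, 44.5, 43.3, 34.6 and 43.4 TPM in HCT116-WT and at 29.2, 14.3, 16.6, 20.0 and 21.8 TPM in HCT116-CD276KO replicates. No values overlapped, and 47.7% of the HCT116-WT mean was left, at -1.07 ± 0.16 log2 units (SE) and an adjusted p of 0.00311 in limma. CDH1 is also one of the 6 epithelial markers, which were lower as a group in the clone. The part of that in the substrate list was not tested.

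AREG (amphiregulin, an EGF receptor ligand cleaved by ADAM17) stood at 331, 313, 280, 343 and 311 TPM in HCT116-WT and at 235, 197, 242, 253 and 242 TPM in HCT116-CD276KO replicates. The groups did not overlap, and limma put the difference at -0.43 ± 0.08 log2 units (SE), adjusted p = 0.00878. JAG1, a Notch ligand shed by ADAM17, fell from 16.4 ± 1.83 to 9.92 ± 2.29 TPM (SD, n = 5 each), or -0.69 on the log2 scale (limma adjusted p = 0.0123, but 0.0626 without HCT116-CD276KO replicates 2 and 3). TGFA and CXCL16, the other 2 called, had log2 fold changes of -0.45 and -0.37 with adjusted p-values of 0.0430 and 0.0385 from limma. Of 21 alternatives, 13 ended the call of TGFA and 11 that of CXCL16. With the replicate number as a block their adjusted p-values from limma became 0.0729 and 0.0666. Without HCT116-CD276KO replicates 2 and 3 they were 0.113 for both, so that 3 of the list were called there. CD44, the most abundant substrate and one also cut by MMP14, had 436 ± 34.1 and 343 ± 56.8 TPM (SD, n = 5 each), with no overlap and 0.0906 as its adjusted p in limma. EREG, another ligand released by ADAM17, had overlapping groups of 329 ± 52.4 and 286 ± 55.3 TPM (SD, n = 5 each, limma adjusted p = 0.420). TGFA, CXCL16 and EREG were named after their values were seen.

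Of 11 matrix and cell surface targets of membrane-type metalloproteinases, among them CD44, SDC1, LRP1 and PTK7 from the list of shed proteins and MMP2, 7 were tested and 2 were called, both lower. Of all genes tested, 4.09% were called lower, and this list too was drawn up with earlier results of these data known. LAMB3, a laminin chain of the epithelial basement membrane, fell from 24.4 ± 1.32 to 14.2 ± 3.13 TPM (SD, n = 5 each), or -0.77 ± 0.13 log2 units (SE, limma adjusted p = 0.00513). COL17A1, the hemidesmosomal collagen, fell from 1.68 to 0.426 TPM, a log2 ratio of the means of -1.98. On the log2(TPM + 1) scale limma gave -0.88 at an adjusted p of 0.0204. Of 17 alternatives 2 ended its call. Its adjusted p-value from limma was 0.0556 without HCT116-CD276KO replicate 3 and at most 0.103 over the alternatives. MMP2, the gelatinase that MMP14 activates, was at most at 0.12 TPM in any library, and was named after its values were seen.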

How the data were processed

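RNA-seq of 5 HCT116-WT and 5 HCT116-CD276KO cultures was used. Per the methods and the processing notes, the authors mapped single reads of strand-specific poly(A) libraries with STAR 2.5.2b to GRCh38 and quantified Ensembl genes with RSEM 1.3.0 and featureCounts 1.5.1. The authors deposited TPM with 2 decimals. Which program gave them is not given in the sources used here, and the study's limma/voom test used counts that were not analysed here.

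Symbols came from a gene table, and positions and transcripts from GENCODE 44 on hg38, an annotation newer than the authors'. All genes averaging 1 TPM or more were fitted with limma 3.58.1 (R 4.3.3) on log2(TPM + 1), with a variance trend and Benjamini-Hochberg adjustment. Single members were also compared by two-sided exact permutation (Python 3.11.15, numpy 2.4.6, pandas 2.3.3). The alternatives were a pseudocount of 0.1, no minimum, a minimum of 5 TPM, median-of-ratios and quantile scaling, robust variances, a threshold of 1.5-fold, log2 ratios of means, a replicate block, removal of length and GC trends by local regression (share 0.3), and leaving out each library. Setting aside HCT116-CD276KO replicates 2 and 3 was added after seeing the data. The fit was tested on simulated data.

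The members and lists were chosen with earlier results of these data known. Named were the members, CD276 and, in each further list, up to 4 called genes with the smallest p and the most abundant gene. For the 2 members with the smallest p, the 3 genes with the most similar values were also named. Other names are said to follow the values. One gene was taken off the list of matrix targets and is not reported here. Promoter sequence came from RefSeq (GRCh38.p14). Member entries on chromosome 8, which holds ADAM9, were left out, and 8 of the 10 members had an entry among the rest.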

Additional observations from a re-analysis of the deposited data

Results flagged for a closer look

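In groups of 5 values, the gap between the highest or lowest value and its nearest neighbour was set against the whole range of that group and compared with a limit that chance passes in about 1 of 20 groups. Of 62 groups examined 3 were over it, about the number chance gives.

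BSG in HCT116-WT cultures had a gap of 0.837 of its range, with 786 TPM in replicate 3 and 631 to 656 TPM in the other 4 libraries. ADAM15 in HCT116-CD276KO cultures had a gap of 0.716, with 158 TPM in replicate 2 and 122 to 132 TPM in the others. LAMB3 in HCT116-WT cultures had a gap of 0.754, with 22.1 TPM in replicate 4 and 24.4 to 25.2 TPM in the others. Replicate 3 of HCT116-WT and replicate 2 of HCT116-CD276KO had the highest correlations of library deviations with GC content, at 0.61 and 0.48. With the trends removed, HCT116-WT replicate 3 deviated by 0.12 in BSG and HCT116-CD276KO replicate 2 by 0.24 in ADAM15. Without HCT116-WT replicate 3 the log2 fold change of BSG was -0.12, against -0.18 with it.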

How the results depend on the processing

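Limma called 662 of all genes tested. The number was 1299 with the length and GC trends removed, 378 with the replicate block, 238 with a change of at least 1.5-fold and 346 without HCT116-CD276KO replicates 2 and 3. With 1 library left out it ran from 340 to 886, with 343, 370, 422 and 340 without HCT116-WT replicates 1, 2, 4 and 5 and 404 and 381 without HCT116-CD276KO replicates 3 and 4. The threshold is stricter and the smaller sets hold fewer samples by construction, and for the other settings the cause was not tested. The number of members called was 0 in all fits but 1, that with the trends removed, which called 1 (BSG). With 1 library left out it was 0 throughout, and the exact permutation test passed 0.05 in 2 to 3 members.

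The direction turned for MMP14 (0.011 after median-of-ratios scaling, 0.052 after quantile normalization, 0.046 with the trends removed, with and without the block), for TIMP1 (0.024 after median-of-ratios scaling) and for ADAM17 (0.01 with the trends removed, with and without the block, and 0.061 without HCT116-CD276KO replicates 2 and 3). It also turned for ADAM19 (0.048 after median-of-ratios scaling and after quantile normalization, 0.155 with the trends removed, with and without the block, 0.163 without HCT116-CD276KO replicates 2 and 3, and -0.13 to 0.03 with 1 library left out), for ADAMTS7 (0.03 with the trends removed, with and without the block) and for PPIA (-0.016 after quantile normalization). The log2 ratio of ADAM17 to TIMP3 differed by 0.87 between the groups and by 0.14 with 1 TPM added. Among shed substrates 6 were called, with 3 without HCT116-CD276KO replicates 2 and 3 and 4 to 8 under the others.

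Whether replicates with the same number in both groups share more than the number is not stated. The correlations of their deviations were 0.087, -0.181, 0.037, -0.027 and 0.119. In no pair with the same number was each library the best match of the other. Added to the fit of the deposited values, the replicate block changed the call of no member, and added to the fit with the trends removed it ended that of BSG (adjusted p = 0.0939 in limma). As TPM keep no counts, changes at levels such as that of TIMP3 were not set against counting error.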

Other observations

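Most of the other metalloproteinase genes listed, secreted or membrane-bound, were low in these cultures. Of the 21 other MMP genes 17 were under a mean of 1 TPM, and so were 12 of 16 other ADAM and 15 of 19 ADAMTS genes. The gelatinase MMP9 stood at 0.11 to 0.20 TPM in HCT116-WT and 0.17 to 0.44 TPM in HCT116-CD276KO cultures, with overlap, and TIMP4 at no more than 0.05 TPM in any library. In 3 of the genes under 1 TPM the HCT116-CD276KO cultures were lower without overlap. MMP19 stood at 0.36 to 1.89 TPM in HCT116-WT and 0.10 to 0.27 TPM in HCT116-CD276KO cultures. MMP20 stood at 0.34 to 0.94 and 0.04 to 0.14 TPM, and ADAM32 at 0.56 to 1.32 and 0.21 to 0.41 TPM. Of all genes with a mean between 0.1 and 1 TPM, 2.5% were lower without overlap. The 3 were picked from all listed genes under 1 TPM, many of them near 0, so their number cannot be set against that share. MMP17, a further membrane-type metalloproteinase, had means of 5.60 TPM in HCT116-WT and 4.46 TPM in HCT116-CD276KO cultures and was not called (adjusted p-value 0.198 from limma). The membrane-bound inhibitor RECK, at a mean log2 fold change of 0.17, was not called (adjusted p-value 0.305 from limma). These genes were named after their values were seen.

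By the root mean square difference of values centred on each gene's own mean over the 10 libraries (log2(TPM + 1)), the genes closest to MMP15 among 13572 were TMBIM1 (0.023), GAA (0.039) and CPSF1 (0.040). Those closest to BSG were SLC25A6 (0.036), IFITM3 (0.038) and SLC17A9 (0.039).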
